A study of Mus musculus with 35 samples.

Results

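The vascular growth factors of the VEGF and angiopoietin systems and their receptors were compared between brown and white fat of the mouse. The 10 genes were chosen by name: the ligands Vegfa, Vegfb and Vegfc, the VEGF receptors Kdr, Flt1 and Flt4, the angiopoietins Angpt1 and Angpt2, and the Tie receptors Tek and Tie1. All 10 were found among the 18947 genes of the mRNA table. Messenger RNA came from 4 samples of interscapular brown adipose tissue (iBAT) and 4 of epididymal white adipose tissue (eWAT), both from 15-week-old male wild-type mice of the strain C57BL/6J, given as C57BL/6 in another label. Small RNA came from 13-week-old male mice of that strain, 3 libraries from each of the depots labelled aWAT, cWAT, iBAT, iWAT, mWAT and eWAT. None of these groups is labelled with a mutation or drug, and the labels do not spell out cWAT. The protocol also mentions inguinal pads from mice kept at 4 °C without tying them to a label. No label says whether libraries came from separate animals, so p-values measure only the spread between these samples.

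VEGF ligands are secreted proteins that bind receptor tyrosine kinases on endothelial cells. VEGFA acts mainly through VEGFR2, encoded by Kdr, and drives the sprouting and survival of blood vessels, while VEGFR1, encoded by Flt1, binds VEGFA tightly and in part holds it back. VEGFC acts through VEGFR3, encoded by Flt4, and is the main growth factor of lymphatic vessels. Angiopoietin 1, made largely by cells around the vessel, activates TIE2, encoded by Tek, and stabilises vessels, while angiopoietin 2, made by endothelial cells, often opposes it. Brown fat is densely supplied with capillaries, and VEGFA is known in mice to raise vessel density in both kinds of fat.

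Of the 10 genes, 5 had higher levels in iBAT than in eWAT, 2 had lower ones and 3 did not differ past the threshold, at an adjusted p under 0.05 in the authors' deposited table. Vegfa, Kdr, Flt1, Angpt1 and Tie1 were the higher ones, and Vegfc and Angpt2 the lower ones. Over all genes of the authors' deposited table, 48.0% were called in either direction, 20.9% higher and 27.1% lower in iBAT. With an absolute log2 fold change of at least 1 also required, 2 of the 10 were higher and 2 lower, against 11.0% and 19.5% of all genes, 30.6% together, in the authors' deposited table. For the 10 genes the median log2 fold change was 0.58, and for all genes -0.10, in the authors' deposited table. The authors' deposited table gives 1 fold change, standard error and p-value per gene and no value per library, so the spread among the 8 mRNA libraries and their depth are unknown. In bulk tissue, fewer cells of a type and less RNA per cell cannot be told apart.

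**Figure D1:**
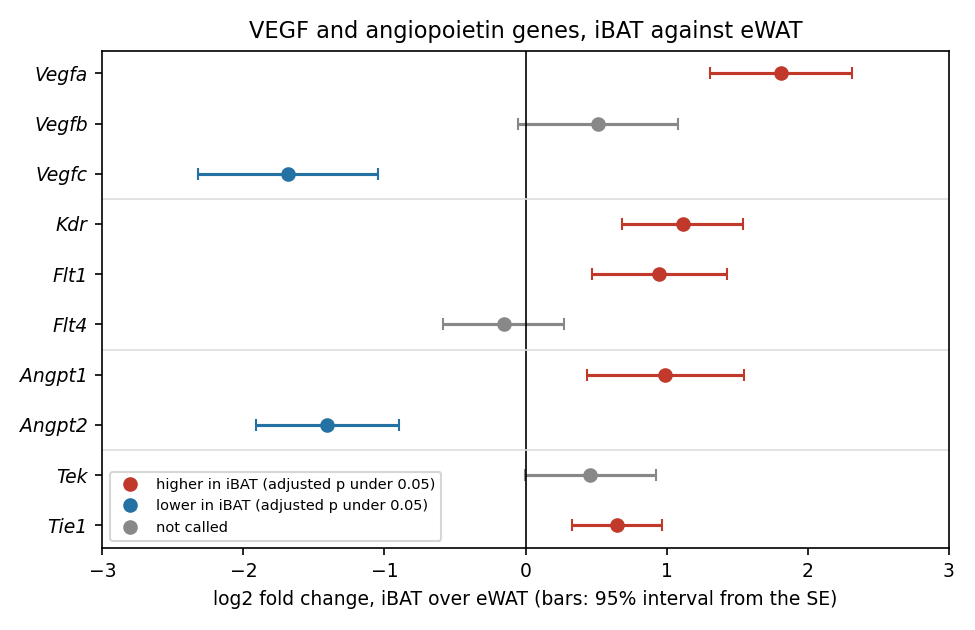
Log2 fold change of the 10 VEGF and angiopoietin genes, iBAT over eWAT, from the authors' deposited table (x axis). Bars are 95% intervals computed from the deposited standard error. Red genes were called higher in iBAT, blue ones lower and grey ones not called, and the grey intervals of Vegfb, Flt4 and Tek all cross 0.

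Vegfa, the main growth factor of blood vessels (ENSMUSG00000023951, GRCm38.p6 chromosome 17, 46016993 to 46032377), was higher in iBAT by 1.81 ± 0.26 (SE) on the log2 scale, a 3.51-fold difference (adjusted p = 4.39e-12, per the authors' deposited table). Its fold change was above that of 94.9% of all genes in the authors' deposited table, the highest place among the 10. Vegfc, the lymphatic growth factor (ENSMUSG00000031520, chromosome 8, 54077532 to 54186454), went the other way, at a log2 fold change of -1.68 ± 0.33 (SE; adjusted p = 3.73e-07), per the authors' deposited table. Its level was thus 3.22-fold lower in iBAT, and 12.9% of genes had a lower fold change in the authors' deposited table. Vegfb, a ligand of VEGFR1 that is abundant in oxidative tissues (ENSMUSG00000024962, chromosome 19, 6982472 to 6987651), had a log2 fold change of 0.51 ± 0.29 (SE) and was not called (adjusted p = 0.115 per the authors' deposited table). The 95% interval for Vegfb ran from -0.06 to 1.08, so the table does not settle whether it differs. Base means, the authors' mean normalized counts over all mRNA libraries, were 14628 for Vegfa, 5939.7 for Vegfb and 194 for Vegfc in the authors' deposited table, and are not scaled to gene length.

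The other ligands of the family had lower levels in iBAT, and the neuropilins higher ones. Pgf, which encodes placental growth factor, a ligand of VEGFR1, had a log2 fold change of -3.49 ± 0.55 (SE; adjusted p = 1.72e-10), per the authors' deposited table. Vegfd, in the mouse a ligand of VEGFR3 as VEGFC is, had one of -2.24 ± 0.20 (SE; adjusted p = 6.17e-29), per the authors' deposited table. Of the ligands, then, those that act on lymphatic vessels and placental growth factor fell in iBAT, and Vegfa rose. Nrp1, a co-receptor that binds VEGFA together with VEGFR2, was higher by 1.15 ± 0.24 (SE; adjusted p = 2.75e-06), and Nrp2, a co-receptor described mainly for VEGFC and VEGFR3, by 2.26 ± 0.20 (SE; adjusted p = 2.81e-28), both in the authors' deposited table.

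The promoters of Vegfa and Vegfc are shown because these genes were called with opposite signs. That of Tie1, called with the sign of Vegfa, is shown because its window differs in the motifs it holds. Each line gives the 250 bases before the RefSeq start site in GRCm38.p6, read 5′ to 3′ on the gene's strand. Vegfa lies at chr17:46032378-46032627 on the minus strand, Vegfc at chr8:54077282-54077531 on the plus strand, and Tie1 at chr4:118489850-118490099 on the minus strand. Capitals mark every match, on either strand, to the GC box GGGCGG or the Ets core GGAAG.
Vegfa: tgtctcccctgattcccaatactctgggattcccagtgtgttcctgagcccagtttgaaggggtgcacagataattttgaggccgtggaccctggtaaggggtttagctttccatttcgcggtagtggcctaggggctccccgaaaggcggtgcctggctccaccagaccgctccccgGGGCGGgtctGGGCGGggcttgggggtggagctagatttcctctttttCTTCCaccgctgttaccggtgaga
Vegfc: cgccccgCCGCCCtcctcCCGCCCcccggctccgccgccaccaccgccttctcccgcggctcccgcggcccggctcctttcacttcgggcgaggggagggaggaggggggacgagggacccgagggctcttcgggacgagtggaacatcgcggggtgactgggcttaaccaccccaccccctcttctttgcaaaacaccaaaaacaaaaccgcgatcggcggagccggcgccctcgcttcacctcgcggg
Tie1: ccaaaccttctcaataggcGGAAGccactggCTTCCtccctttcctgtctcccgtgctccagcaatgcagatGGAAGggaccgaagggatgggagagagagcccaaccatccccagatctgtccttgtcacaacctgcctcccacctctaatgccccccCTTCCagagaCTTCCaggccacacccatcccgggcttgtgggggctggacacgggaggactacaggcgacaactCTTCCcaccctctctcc
The windows of Vegfa and Vegfc held 2 GC boxes each, and Vegfa also 1 Ets core. The Tie1 window held 6 Ets cores and no GC box. RefSeq's table gave a window for 8 of the 10 genes, the others being Angpt1 and Angpt2. Vegfa had 2 windows, of which the one starting at the gene's edge was used. The start sites of Kdr, Flt1 and Tek lay 617, 427 and 203 bases from the gene's edge. Of the 8, 6 held a GC box, against 32.7% of all 32851 windows of that length, and 5 held an Ets core, against 64.1% of all windows. None of the 8 held the hypoxia-response core ACGTG (16.6% of all windows) or the oestrogen-related receptor site AAGGTCA (4.08%), and 1, that of Flt1, held the cyclic AMP response element TGACGTCA (1.55%). None of these motifs contains another, a match describes letters only, and a missing match says nothing of sites elsewhere.

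Among the receptors, Kdr and Flt1 were higher in iBAT and Flt4 was not called. Kdr, the main signalling receptor for VEGFA (ENSMUSG00000062960, chromosome 5, 75932827 to 75979072), was higher by 1.11 ± 0.22 (SE) on the log2 scale, or 2.16-fold (adjusted p = 1e-06, per the authors' deposited table). Flt1, the receptor that also serves as a decoy in its soluble form (ENSMUSG00000029648, chromosome 5, 147561604 to 147726438), was higher by 0.95 ± 0.24 (SE), or 1.93-fold (adjusted p = 0.00023, per the authors' deposited table). The 95% intervals of Kdr (0.69 to 1.54) and Flt1 (0.47 to 1.43) overlap, and their difference was not tested. The table gives genes and not transcripts, so soluble and membrane forms of Flt1 were not separated. Flt4, the VEGFC receptor of lymphatic endothelium (ENSMUSG00000020357, chromosome 11, 49609679 to 49652739), had a log2 fold change of -0.16 ± 0.22 (SE; adjusted p = 0.578), per the authors' deposited table. Its 95% interval, -0.59 to 0.27, leaves out differences as large as those of Vegfc or Kdr.

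The angiopoietins changed in opposite directions. Angpt1, the activating ligand of TIE2 (ENSMUSG00000022309, chromosome 15, 42424667 to 42676977), was higher in iBAT by 0.99 ± 0.28 (SE), or 1.99-fold (adjusted p = 0.000905, per the authors' deposited table). Angpt2, the context-dependent antagonist (ENSMUSG00000031465, chromosome 8, 18690263 to 18741562), was lower at a log2 fold change of -1.41 ± 0.26 (SE), or 2.65-fold (adjusted p = 1.29e-07, per the authors' deposited table). Their 95% intervals, 0.43 to 1.55 for Angpt1 and -1.91 to -0.90 for Angpt2, lie on opposite sides of 0.

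Of the Tie receptors, Tie1 rose and Tek did not pass the threshold. Tie1, an orphan receptor that modulates TIE2 (ENSMUSG00000033191, chromosome 4, 118471191 to 118489849), was higher by 0.65 ± 0.16 (SE), or 1.57-fold (adjusted p = 0.000172, per the authors' deposited table). Tek (ENSMUSG00000006386, chromosome 4, 94739086 to 94874976) had a log2 fold change of 0.46 ± 0.24 (SE), with a 95% interval of -0.01 to 0.92 (adjusted p = 0.0882, per the authors' deposited table). With fold changes centred on the median of all genes, Tek was called at 0.56 (adjusted p = 0.0445 from the fold and SE in the authors' deposited table). Its call therefore depends on the centring.

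The other genes around the Tie receptors showed 2 lower and 4 not called among 6, a called share of 33.3% against 48.0% of all genes, in the authors' deposited table. Angpt4, the remaining angiopoietin of the mouse, was lower at a log2 fold change of -4.65 ± 0.48 (SE; adjusted p = 2.01e-21), and Dok2, an adaptor that binds TIE2, at -2.06 ± 0.33 (SE; adjusted p = 9.07e-10), per the authors' deposited table. Ptprb, the vascular phosphatase that dampens TIE2, stood at 0.24 ± 0.28 (SE), and Foxo1, a transcription factor restrained by TIE2 signalling that induces Angpt2, at 0.20 ± 0.17 (SE), neither called in the authors' deposited table. Svep1, a matrix protein described as a TIE1 ligand, stood at 0.60 ± 0.29 (SE; adjusted p = 0.0639), and Tnip2, a TIE2-binding inhibitor of inflammatory signalling, at -0.33 ± 0.19 (SE; adjusted p = 0.131), per the authors' deposited table.

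Angiopoietin-like genes, which share protein structure with the angiopoietins but do not bind Tie receptors in general, counted 2 higher, 2 lower and 3 not called of 7, a called share of 57.1% against 48.0% of all genes, in the authors' deposited table. Angptl1 was higher by 2.24 ± 0.20 (SE) and Angptl8, a regulator of lipoprotein lipase, by 1.40 ± 0.45 (SE) in the authors' deposited table. Angptl7 was lower in iBAT at -1.43 ± 0.57 (SE) in the authors' deposited table.

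Genes of signalling below the VEGF receptors were mostly not called. Of 30 genes, 7 rose in iBAT, 4 fell and 19 did not pass, a called share of 36.7% against 48.0% of all genes, and their median log2 fold change was -0.03 in the authors' deposited table. Mapkapk2, a kinase of the p38 pathway, was higher by 1.25 ± 0.16 (SE) and Shb, an adaptor that binds VEGFR2, by 0.99 ± 0.26 (SE) in the authors' deposited table. Sphk1, a sphingosine kinase, stood at -4.49 ± 0.49 (SE) and the kinase Src at -2.55 ± 0.21 (SE), both lower in iBAT in the authors' deposited table.

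Notch genes and markers of sprouting tip cells counted 1 higher, 4 lower and 10 not called of 15, a called share of 33.3% against 48.0% of all genes, with a median of -0.03 in the authors' deposited table. The tip cell marker Esm1, which VEGFA is known to induce, was lower at -4.16 ± 0.62 (SE; adjusted p = 2.6e-11), per the authors' deposited table, against the higher level of Vegfa. Its base mean was only 34.4 in the authors' deposited table. Other tip cell genes of the list were not called there. Apln stood at 0.69 ± 0.48 (SE), Dll4 at 0.28 ± 0.33 (SE) and Unc5b at -0.16 ± 0.38 (SE), in the authors' deposited table. Lfng, which modifies Notch receptors, stood at -1.19 ± 0.29 (SE; adjusted p = 6e-05), and the Notch ligand Jag2 was the higher one, by 0.42 ± 0.18 (SE; adjusted p = 0.0354), per the authors' deposited table. Other vascular factors counted 2 higher, 5 lower and 6 not called of 13, a called share of 53.8%, with a median of -0.35 in the authors' deposited table. Among them the hepatocyte growth factor receptor Met was higher by 0.85 ± 0.22 (SE) and the pericyte recruitment factor Pdgfb by 0.37 ± 0.16 (SE; adjusted p = 0.0457), while the vasodilator peptide gene Adm stood at -2.21 ± 0.32 (SE) and Fgf1 at -2.11 ± 0.15 (SE), in the authors' deposited table.

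Genes listed as inhibitors of angiogenesis were mostly lower in iBAT. Of 10 genes, 8 were lower, 1 higher and 1 not called, against 27.1% of all genes lower and 20.9% higher, and the median log2 fold change was -1.88 in the authors' deposited table. Thbs1, which encodes thrombospondin 1, a matrix protein that restrains endothelial cells, was lower at -4.63 ± 0.50 (SE; adjusted p = 1.82e-20), and the guidance factor Sema3a at -3.01 ± 0.45 (SE; adjusted p = 4.4e-11), per the authors' deposited table. Plxnd1, a semaphorin receptor and not itself an inhibitor, was the higher one, by 0.49 ± 0.19 (SE; adjusted p = 0.0189), per the authors' deposited table. Vash2, among the lower ones at -2.69 ± 0.81 (SE) in the authors' deposited table, is described as promoting angiogenesis. The counts and the median are thus not those of inhibitors alone.

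Genes known to act on Vegfa transcription or on its oxygen sensing counted 8 higher, 2 lower and 3 not called of 13, against 20.9% of all genes higher and 27.1% lower, with a median of 1.08 in the authors' deposited table. The coactivator genes Ppargc1b and Ppargc1a were higher by 4.93 ± 0.21 (SE) and 3.58 ± 0.31 (SE), and their partner receptor Esrrg by 3.83 ± 0.55 (SE), in the authors' deposited table. All 3 are known as regulators of oxidative metabolism in brown adipocytes, and Ppargc1a is in that marker list too. Epas1, which encodes the hypoxia-inducible factor HIF2A, was higher by 1.08 ± 0.17 (SE), while Hif1a stood at 0.17 ± 0.30 (SE) and was not called, in the authors' deposited table. Of 4 oxygen-sensing hydroxylases that restrain hypoxia-inducible factors, 3 were higher too in the authors' deposited table. These were Egln1 by 1.94 ± 0.13 (SE), Egln3 by 1.44 ± 0.27 (SE) and Hif1an by 0.95 ± 0.16 (SE). The remaining one, Egln2, stood at 0.02 ± 0.22 (SE) and was not called (adjusted p = 0.945 per the authors' deposited table). Hif3a was lower at -2.84 ± 0.59 (SE) and Vhl, which targets these factors for breakdown, at -0.84 ± 0.17 (SE) in the authors' deposited table.

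Hypoxia target genes other than Vegfa were split, with 4 higher, 3 lower and 6 not called of 13, a called share of 53.8% against 48.0% of all genes, and a median of 0.01 in the authors' deposited table. The higher ones included the glycolytic genes Pgk1, by 2.61 ± 0.25 (SE), and Ldha, by 1.36 ± 0.23 (SE), in the authors' deposited table. Ndrg1 at -1.52 ± 0.24 (SE) and P4ha2, a collagen prolyl hydroxylase, at -1.26 ± 0.17 (SE) were among the lower ones in the authors' deposited table. Over these 9 lists of vascular and pathway genes together, 27 of 111 genes were higher and 32 lower, a called share of 53.2% against 48.0% of all genes in the authors' deposited table.

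**Figure D2:**
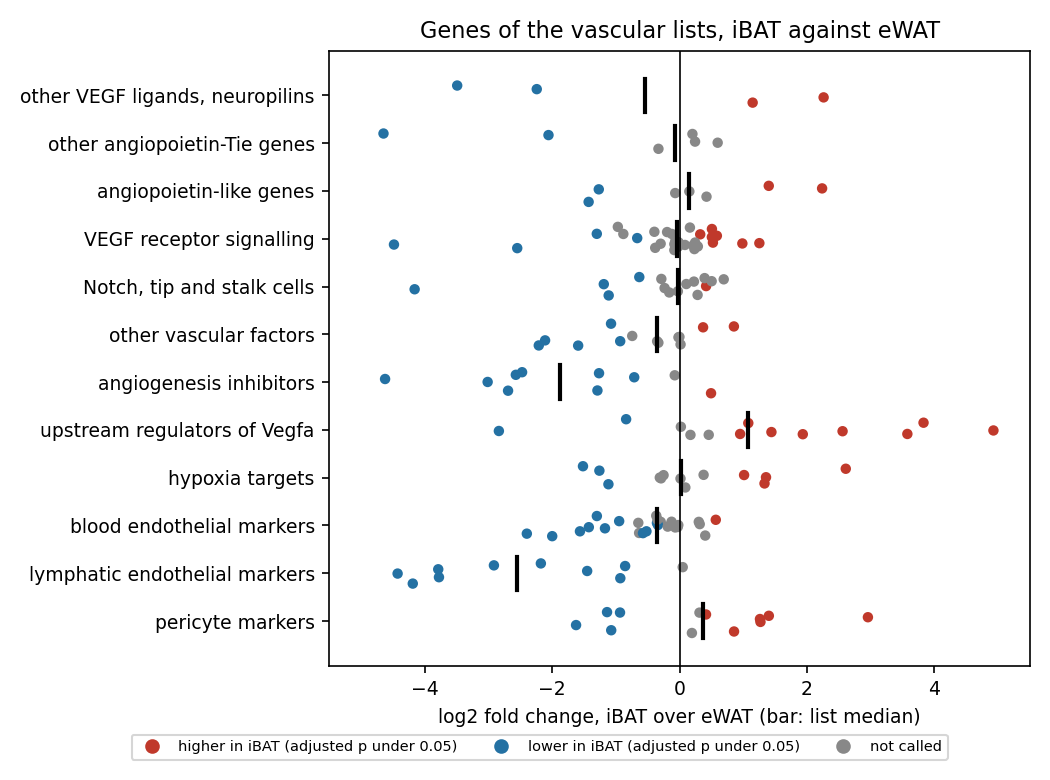
Log2 fold change, iBAT over eWAT, of each gene in 12 lists (x axis, 1 row per list, points spread vertically for legibility), from the authors' deposited table. Black bars are list medians, which run from -2.55 for lymphatic endothelial markers to 1.08 for upstream regulators of Vegfa.

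Beside the higher Kdr, Flt1 and Tie1, markers of the endothelial cells that carry these receptors were mostly lower in iBAT or not called. Of 25 blood endothelial markers, 1 was higher in iBAT, 11 lower and 13 not called, with a median of -0.36 in the authors' deposited table. The called share, 48.0%, equalled that of all genes, but not its split, since 20.9% of all genes were higher and 27.1% lower in iBAT. Pecam1, which encodes the junction protein CD31, was lower at -0.36 ± 0.15 (SE) (adjusted p = 0.0364) and Cdh5, which encodes VE-cadherin, stood at 0.30 ± 0.18 (SE) and was not called, in the authors' deposited table. Vwf, which encodes von Willebrand factor, was lower at -2.40 ± 0.21 (SE) and Plvap, a protein of capillary fenestrae, with a 4.00-fold lower level in the authors' deposited table. With fold changes centred on the median of all genes, Pecam1 was no longer called (adjusted p = 0.162 from the fold and SE in the authors' deposited table) and 8 markers were lower. Ets1, an endothelial transcription factor, was higher by 0.57 ± 0.24 (SE; adjusted p = 0.0361), per the authors' deposited table. A difference between the receptors and these markers was not tested.

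Genes of the lymphatic list were mostly lower in iBAT beside Vegfc and Vegfd. Of 10, 9 were lower and 1, Adamts3, was not called, against 27.1% of all genes lower, with a median log2 fold change of -2.55 in the authors' deposited table. Ccbe1, whose product together with that of Adamts3 activates VEGFC, was lower at -4.19 ± 0.35 (SE; adjusted p = 3.07e-33) and Adamts3 stood at 0.05 ± 0.53 (SE) in the authors' deposited table. These 2 encode secreted factors and do not mark lymphatic endothelium itself. Lyve1, the hyaluronan receptor of lymphatic endothelium, was lower at -2.18 ± 0.23 (SE) and Prox1, its lineage factor, at -0.93 ± 0.42 (SE; adjusted p = 0.0313), per the authors' deposited table. The call of Prox1 was lost with p taken from fold over SE (adjusted p = 0.0574) and with centring (adjusted p = 0.0932), both from the authors' deposited table. Lyve1 is also known in macrophages, and Pdpn, at -2.92 ± 0.31 (SE) in the authors' deposited table, in mesothelium. Of the markers of these cell types, 9 of 10 and 8 of 8 were lower in iBAT in the authors' deposited table, and their part was not tested. The chemokine gene Ccl21a, at -4.43 ± 0.42 (SE) in the authors' deposited table, has near-identical copies in the mouse genome, so its value is uncertain. Flt4, the VEGFC receptor on these vessels, was at -0.16 ± 0.22 (SE) beside them in the authors' deposited table, and that difference was not tested.

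Pericyte markers counted 6 higher, 4 lower and 2 not called of 12, against 20.9% of all genes higher and 27.1% lower, with a median of 0.36 in the authors' deposited table. Cspg4, which encodes NG2, was higher by 2.96 ± 0.40 (SE) and Rgs5 by 1.40 ± 0.18 (SE), while Mcam stood at -1.63 ± 0.15 (SE) and Anpep at -1.14 ± 0.23 (SE), in the authors' deposited table. Pdgfrb, the receptor for PDGFB on these cells, stood at 0.31 ± 0.15 (SE) and was not called in the authors' deposited table.

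The labelled tissues were checked against markers. All 9 brown adipocyte markers were higher in iBAT and all 6 white adipocyte markers lower, with medians of 8.01 and -4.14 in the authors' deposited table, but Ucp1, Cidea, Wt1 and Lep were used to read its direction and are no independent check. Markers of other tissues moved as well: 14 of 14 skeletal muscle genes were higher in iBAT (median 7.16), while 8 of 8 mesothelial genes (median -8.92), 7 of 8 epididymal genes (median -14.76) and 9 of 10 macrophage genes (median -1.72) were lower, in the authors' deposited table. Their part in the differences of the VEGF and angiopoietin genes was not tested, and their levels per library were not analysed here.

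MicroRNAs that have been described, mostly in human or mouse cell studies, as acting on VEGFA, its receptors or their signalling were measured in the separate small RNA libraries. The mature sequences below carry the finding that miRNAs with 1 seed went in opposite directions. A seed, bases 2 to 8, is the stretch that pairs with target messages, and it is in capitals. RefSeq's table (GRCm38.p6) held 18 of the 19 listed miRNAs, the other being miR-126a-5p. The miR-15/16 family comes first, in which 6 share the seed AGCAGCA and miR-503-5p has AGCAGCG.
miR-15a-5p: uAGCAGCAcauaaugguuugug
miR-15b-5p: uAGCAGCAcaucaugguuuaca
miR-16-5p: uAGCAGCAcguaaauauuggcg
miR-195a-5p: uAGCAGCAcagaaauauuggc
miR-322-5p: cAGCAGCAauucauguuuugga
miR-497a-5p: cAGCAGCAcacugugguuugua
miR-503-5p: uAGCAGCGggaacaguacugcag
The miR-17 family shares the seed AAAGUGC in 6 miRNAs.
miR-17-5p: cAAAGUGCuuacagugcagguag
miR-20a-5p: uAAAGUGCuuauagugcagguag
miR-20b-5p: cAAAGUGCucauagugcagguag
miR-93-5p: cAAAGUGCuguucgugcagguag
miR-106a-5p: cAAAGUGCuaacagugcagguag
miR-106b-5p: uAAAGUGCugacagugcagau
The miR-200b group shares AAUACUG in 3 miRNAs, and miR-205-5p and miR-126a-3p each have a seed of their own.
miR-200b-3p: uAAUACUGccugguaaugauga
miR-200c-3p: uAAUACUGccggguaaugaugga
miR-429-3p: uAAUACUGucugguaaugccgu
miR-205-5p: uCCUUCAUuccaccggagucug
miR-126a-3p: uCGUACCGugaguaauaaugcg

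Of the 19, 6 were higher in iBAT than in eWAT, 6 were lower and 7 were not called (limma with Benjamini-Hochberg adjustment over 436 miRNAs). Over all tested miRNAs 55.0% were called, 25.5% higher and 29.6% lower. The 3 iBAT and 3 eWAT libraries did not overlap for 16 of the 19, and did not for 69.3% of all tested miRNAs. Values below are the authors' normalized counts per library, and log2 differences are on the scale log2(normalized count + 1). Reads recovered per library ranged from 1293407 to 5694349 in these 6 libraries.

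**Figure D3:**
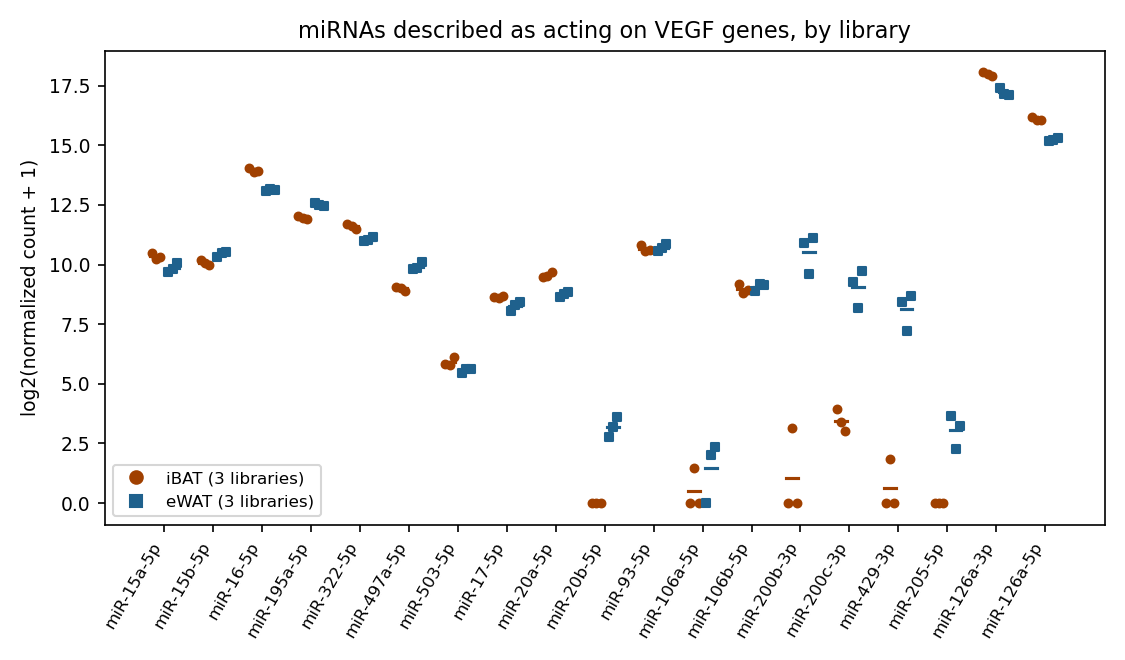
Level of the 19 miRNAs in each library of iBAT (circles) and eWAT (squares), as log2(normalized count + 1), with bars at the mean of 3 libraries. Within the first family miR-16-5p is higher in iBAT and miR-497a-5p lower, while the miR-200b group is lower in iBAT.

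The miR-15/16 family, which is described as repressing VEGFA, was split. Its most abundant member, miR-16-5p, had 16972, 15266 and 15498 normalized counts in iBAT, against 8721, 9128 and 8968 in eWAT. Every iBAT library was above every eWAT library, and the log2 difference was 0.83 ± 0.15 (SE; limma adjusted p = 0.000219). For miR-497a-5p the order was reversed, with 534, 521 and 476 normalized counts in iBAT, against 887, 921 and 1104 in eWAT. The libraries of miR-497a-5p did not overlap, and the log2 difference was -0.92 ± 0.15 (SE; limma adjusted p = 0.000106). Its cluster partner miR-195a-5p moved the same way, with 4176, 3924 and 3892 normalized counts in iBAT, against 6092, 5766 and 5655 in eWAT (log2 difference -0.55 ± 0.11, SE; limma adjusted p = 0.000973).

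A further pair of members was called by a narrow margin. For miR-322-5p the values were 3310.2, 3176 and 2899.6 normalized counts in iBAT, against 2021, 2070.2 and 2254 in eWAT (log2 difference 0.56 ± 0.19, SE; limma adjusted p = 0.0204). For miR-15a-5p they were 1415, 1202 and 1279 in iBAT, against 827, 898 and 1069 in eWAT (log2 difference 0.48 ± 0.19, SE; limma adjusted p = 0.0442). Neither overlapped between the depots, but the call of miR-15a-5p was lost on leaving out any iBAT library or eWAT 1 or 2 (limma adjusted p up to 0.14), and that of miR-322-5p without iBAT 1 or 2 or eWAT 1 or 2 (limma adjusted p up to 0.0636). Summed over the 6 miRNAs with the seed AGCAGCA, iBAT libraries held 27569, 25154 and 25044 normalized counts, against 19816, 20209.8 and 20512 in eWAT. The seed as a whole was thus more abundant in iBAT in each library, with miR-16-5p its largest part.

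The miR-17 family, also described as acting on VEGFA, had 1 miRNA higher and 1 lower. For miR-20a-5p, iBAT had 707, 739.8 and 819 normalized counts, against 399.8, 438 and 456 in eWAT (log2 difference 0.81 ± 0.13, SE; limma adjusted p = 0.000127). For miR-17-5p, from the same cluster, iBAT had 399.3, 390.1 and 408 normalized counts, against 263, 315 and 341 in eWAT. The miR-17-5p libraries did not overlap, but the log2 difference of 0.39 ± 0.16 (SE) did not pass (limma adjusted p = 0.0519). The near-identical miR-20b-5p was at 0 in every iBAT library, against 5.81, 8.12 and 11.3 normalized counts in eWAT. Against a floor of 3 reads per library its mean was at least 1.67-fold lower in iBAT. The smallest listed value was 1 read in iBAT 1 and iBAT 2 and 2 reads in iBAT 3. Only in iBAT 3, then, may a listed 0 stand for a single read. Since miR-20a-5p and miR-20b-5p differ in few bases, the splitting of reads between them is uncertain. Summed over the 6 miRNAs of this seed, means were 3278 ± 195 in iBAT and 2969 ± 301 in eWAT (SD, n = 3 each), and these sums overlapped.

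The miR-200b group, described in human endothelial cells as acting on VEGFA and its receptors, reached at most 14.4 normalized counts in iBAT. For miR-200b-3p, iBAT had 0, 7.93 and 0 normalized counts, against 1913, 771 and 2214 in eWAT (log2 difference -9.48 ± 1.54, SE; limma adjusted p = 0.000113). For miR-200c-3p, iBAT had 14.4, 9.69 and 7.03, against 607, 293 and 847 in eWAT (log2 difference -5.60 ± 1.41, SE; limma adjusted p = 0.00391). For miR-429-3p, iBAT had 0, 2.64 and 0, against 349, 148 and 412 in eWAT (log2 difference -7.50 ± 1.37, SE; limma adjusted p = 0.000323). These miRNAs are known as epithelial, and they stand beside the lower levels of 7 of 8 epididymal and 8 of 8 mesothelial genes in iBAT in the authors' deposited table, a link that was not tested. The epithelial miR-205-5p was at 0 in every iBAT library, against 11.6, 3.85 and 8.30 in eWAT, and was not called (limma adjusted p = 0.0739).

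The endothelial miRNA miR-126, which is known to strengthen VEGF signalling by repressing its inhibitors, was higher in iBAT in both arms. For miR-126a-3p, iBAT had 273165, 259453 and 248787 normalized counts, against 172745, 146923 and 141895 in eWAT (log2 difference 0.76 ± 0.13, SE; limma adjusted p = 0.000131). For miR-126a-5p, iBAT had 74621, 67795 and 69251, against 37245, 37701 and 40189.6 in eWAT (log2 difference 0.88 ± 0.18, SE; limma adjusted p = 0.000721). No iBAT library overlapped an eWAT library for either arm. Egfl7, the gene whose intron holds miR-126, had an mRNA log2 fold change of -0.37 ± 0.30 (SE) and was not called (adjusted p = 0.3 per the authors' deposited table). The mRNA and small RNA values come from separate libraries of mice of different ages and were normalized separately.

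**Figure D4:**
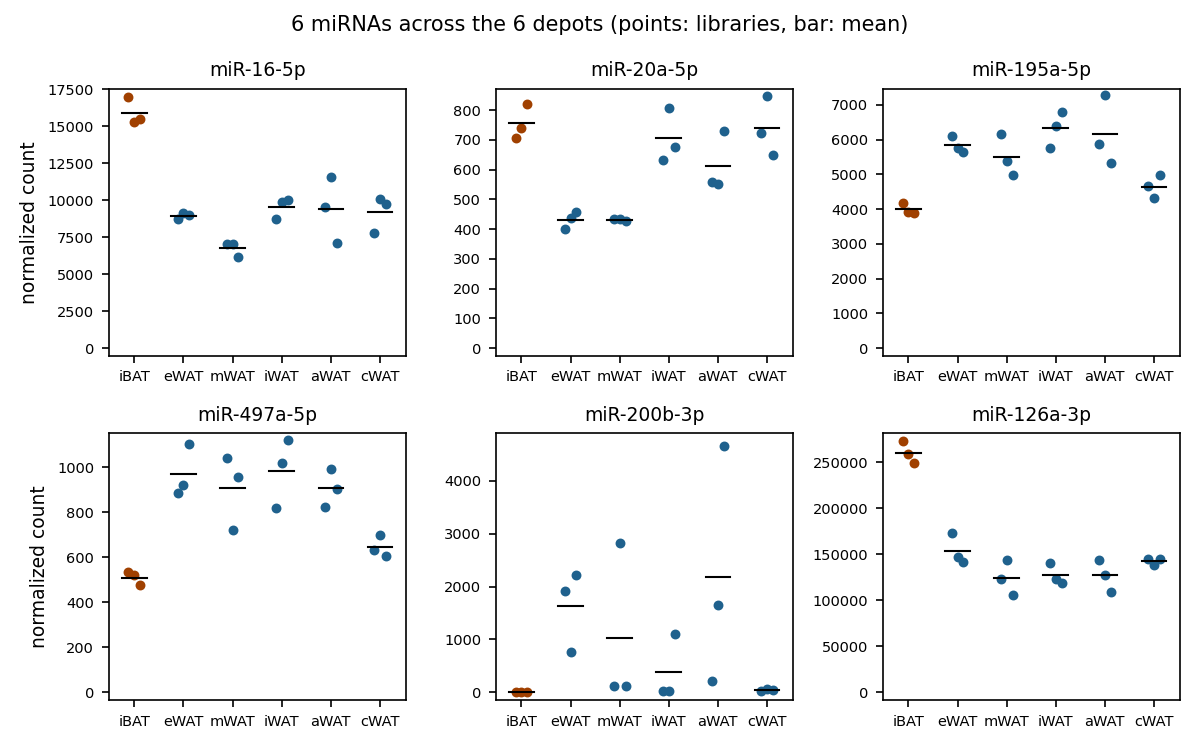
Normalized counts of 6 miRNAs in each of the 6 depots (3 points per depot, bars at the mean; y axes start near 0 and differ between panels). iBAT, in brown, lies above every other library for miR-16-5p and miR-126a-3p and below every other library for miR-195a-5p and miR-497a-5p.

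Across the other depots, given as a description with no test, iBAT lay at an edge of the range for miR-16-5p, miR-126a-3p, miR-195a-5p and miR-497a-5p. Other libraries reached at most 11554 normalized counts of miR-16-5p, against a lowest iBAT value of 15266. The lowest iBAT value of miR-126a-3p, 248787, was likewise above the highest other value, the 172745 of eWAT 1. For miR-497a-5p the highest iBAT value was 534 and the lowest elsewhere 608, and for miR-195a-5p they were 4176 and 4311, both lowest values in cWAT. Levels of miR-20a-5p in iWAT (633 to 808), aWAT (552 to 729) and cWAT (649 to 848) overlapped those of iBAT, so for this miRNA eWAT and mWAT (425 to 435) were the low depots. Levels of miR-200b-3p varied within depots, from 22.0 to 1096 in iWAT, 119 to 2817 in mWAT and 219.9 to 4663 in aWAT, and were 31.4 to 55.2 in cWAT.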

How the data were processed

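The study's 35 samples comprise 8 mRNA libraries, 18 miRNA libraries and 9 Argonaute HITS-CLIP samples, each of the last from 2 pooled mice, which were not analysed here. The labels gave the groups. The members and gene lists were chosen with earlier results of these data known. Per the labels' protocols, mRNA libraries used a stranded total RNA kit on an Illumina NextSeq instrument. The submitters' processing notes list kallisto 0.45.0, DESeq, DESeq2, Novoalign, GRCm38 and mm10, with no roles given.

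The mRNA table the authors deposited gives, per the file headers, a base mean (a signal, the mean of counts divided by size factors), a log2 fold change with its standard error, a p-value and an adjusted p-value for 18947 genes, 18758 of which have a symbol. Its direction was taken from the signs of Ucp1 and Cidea (positive, higher in iBAT) and of Wt1 and Lep (negative). Calls used the deposited adjusted p under 0.05, and 95% intervals came from the standard error. The deposited p matched the one from fold change divided by SE (to 0.01 on a log10 scale) for 10.7% of genes, so intervals and p-values need not match. Symbols and coordinates came from RefSeq (GRCm38.p6).

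The miRNA signal is the normalized count the authors deposited for 485 miRNAs. Values were whole multiples of 1 read per library within 0.02 reads in 100% of cases, and the smallest was 1 read in 6 libraries and 2 reads in 12. Since values were normalized, limma 3.58.1 (R 4.3.3; eBayes with trend) was run on log2(normalized count + 1) with all 6 depots in 1 fit and 12 residual degrees of freedom, after edgeR 4.0.16 filterByExpr kept 436 miRNAs and removed 49. Totals ranged from 1293407 to 6816555 reads, and floors of 3 reads cover counting error only. The test was checked on simulated data. Named genes were all 10 members, all genes of lists of 6 or fewer, otherwise the 2 called genes with the largest positive and the 2 with the largest negative log2 fold change among those with a base mean of at least 10, and genes a result turns on. Cdh5, Pecam1, Pdgfrb, Adamts3, Lyve1, Prox1, Egfl7, Epas1, Hif1a, Egln1, Egln3, Hif1an and Ppargc1a were named after their values were seen. So were Egln2, Apln, Dll4, Unc5b, Vash2 and Pdpn. A gene that this rule names is not reported here. Alternatives were a replicate block, other pseudocounts (0.5 and 5), no filter, edgeR, DESeq2 1.42.0, the authors' own comparison, 2 depots only and each library left out, and for mRNA a threshold of 0.01, an absolute log2 fold change of at least 1, a base mean of at least 10, centring and p from fold over SE.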

Additional observations from a re-analysis of the deposited data

How the results depend on the processing

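With an absolute log2 fold change of at least 1 also required, the VEGF and angiopoietin genes called higher in iBAT numbered 2 instead of 5, since Flt1 (0.95), Angpt1 (0.99) and Tie1 (0.65) fell short, and those of the pathway lists numbered 16 instead of 27. The number of members called lower stayed at 2 under each mRNA alternative. The fold requirement also left 6 instead of 11 blood endothelial markers lower and 1 instead of 7 VEGF signalling genes higher. At an adjusted p under 0.01, the named genes Jag2, Pdgfb, Plxnd1, Ets1, Angptl7, Pecam1 and Prox1 were no longer called, nor were other list genes, and 8 blood endothelial markers were lower (11 at 0.05), 8 lymphatic markers lower (9) and 5 signalling genes higher (7). Besides Tek, centring also called Svep1 (0.70). With p from fold over SE, Pdgfb and Prox1 were not called. No called member, named gene or called miRNA of the list changed direction in the alternatives run. Some uncalled list genes near 0 changed sign with centring, as did the medians of the signalling and Notch lists. For the 19 miRNAs, the number higher in iBAT ranged from 4 to 7 and the number lower was 6 when each library was left out in turn. Same-numbered iBAT and eWAT libraries showed no sign of pairing (correlations of deviations 0.03, -0.09 and 0.02). No iBAT library correlated best with the eWAT library of its number. With 3 libraries per depot, this does not settle whether same-numbered libraries share animals. A replicate block gave 247 calls instead of 240 over all miRNAs and 7 higher and 7 lower of the 19, adding miR-15b-5p (limma adjusted p = 0.045) and miR-17-5p (limma adjusted p = 0.0399). The tools edgeR and DESeq2 on recovered reads gave 228 and 231 calls. miR-205-5p was called with a pseudocount of 0.5 (limma adjusted p = 0.0276) and by DESeq2 (adjusted p = 0.0235). The authors' own comparison called it lower in iBAT too (adjusted p = 0.0253, per the authors' deposited comparison). No paired analysis was possible for mRNA because the table holds no value per library. Depth per mRNA library is unknown, and counts near 3 reads set the limit for miR-20b-5p and miR-205-5p.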

Other observations

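Levels of further miR-15/16 family members in the depots outside the comparison belong to no test here. miR-322-5p averaged 3128 ± 209 normalized counts in iBAT, against 2115 ± 123 in eWAT, 1836 ± 192 in iWAT, 1597 ± 112 in cWAT, 1576 ± 457 in aWAT and 959 ± 192 in mWAT (SD, n = 3 each). miR-503-5p, encoded beside it on the X chromosome, averaged 59.5 ± 7.84 in iBAT, against 46.2 ± 3.08 in eWAT and 16.9 ± 2.86 in mWAT (SD, n = 3 each). The lowest mean of both was that of mWAT. miR-205-5p reached 1436 normalized counts in 1 aWAT library and 417 in 1 iWAT library, while all iBAT libraries were at 0.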
